A study of Mus musculus with 9 samples.

Results

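The Ly6 surface protein family was represented here by 9 genes, Ly6a, Ly6a2, Ly6c1, Ly6c2, Ly6d, Ly6e, Ly6g, Ly6i and Ly6k, taken by gene name from the 55322 genes of the expression table. The list was chosen by gene name with the FPKM values of these same libraries in view (FPKM, the reads of a gene relative to its exon length and to the reads counted in the library), so the levels and differences of the members are given as a description, and the counts past a threshold are no independent evidence. All 9 were listed with a value for each library, and 9, 9 and 8 of them passed the filter on low values in the 3 comparisons described below.

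RNA was measured in 9 libraries, 3 from each of 3 groups. CD11b+ B cells and CD11b- B cells were sorted from the bone marrow (BM) of wild-type C57BL/6 mice 48 h after an intraperitoneal injection of 5 mg/kg LPS, the endotoxin of Gram-negative bacteria. Peritoneal macrophages (PMs, CD11b+F4/80+) were sorted from the peritoneal cavity of untreated wild-type mice. CD11b is the integrin chain encoded by Itgam and is carried by most myeloid cells. PMs therefore differed from both B cell groups in cell type, tissue and LPS at once, and these cannot be told apart. The sources used here give no age or sex, and do not say which libraries came from the same animal, so the spread between libraries may be in part technical. For the sort, BM cells bearing CD3, CD4, CD8, Gr-1, NK1.1 or TER119 were set aside. Antibodies to Gr-1 recognise Ly6G and, less strongly, Ly6C, so Ly6g, Ly6c1 and Ly6c2 encode targets of the gate. The reads counted on genes numbered 18014658 to 29208721 for PMs, 32056102 to 34895579 for the CD11b- libraries and 26174718 to 35251215 for the CD11b+ libraries.

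Ly6 proteins are small, cysteine-rich proteins with a fold of finger-like loops, and most are held in the outer leaflet of the plasma membrane by a glycosylphosphatidylinositol (GPI) anchor. They are best known as differentiation antigens of blood cells. Ly6a encodes Sca-1, the antigen used to isolate mouse hematopoietic stem cells, which interferons induce in many leukocytes. Ly6c1 and Ly6c2 encode the Ly6C antigens of monocytes and of some lymphocytes, Ly6g encodes the antigen that marks mouse neutrophils, and Ly6d marks lymphoid progenitors committed to the B lineage and remains on B cells. Ly6e is an interferon-induced gene whose product restricts the entry of coronaviruses. Ly6k is best known from the testis. Ly6a2 (ENSMUSG00000102051) is listed in GENCODE M21 as the transcribed pseudogene I830127L07Rik.

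All 9 genes lie on chromosome 15 (GRCm38, GENCODE M21), within 397 kb from position 74762056 to 75159126. In map order they were Ly6d (74762056-74763620), Ly6k (74796874-74799986), Ly6e (74955051-74959905), Ly6i (74979534-74983430), Ly6a (74994877-74998031), Ly6c1 (75044018-75048830), Ly6c2 (75108158-75111970), Ly6a2 (75131377-75135128) and Ly6g (75155240-75159126). Ly6e and Ly6g are on the plus strand and the other 7 on the minus strand. The same interval holds 16 further annotated genes, and 4 of these reached a mean of 1 FPKM in a group, namely Ly6m, Gm6610, Gm39556 and Gm8000. Ly6k was the sole member overlapped by another gene, the antisense Gm17189, whose mean was 0.0786 FPKM or less in each group. No source used here states a strand setting for the counting of reads.

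The members are near copies of each other to different degrees. Coding sequences from GENCODE M21 were 381 to 462 bases long. Ly6c1 and Ly6c2 were the closest pair, with 90.6% identical bases over 393 aligned bases. Ly6a was 86.3% identical to Ly6i, 83.5% to Ly6c2 and 83.1% to Ly6g, whereas Ly6d, Ly6e and Ly6k were 55.9% to 64.9% identical to each other and to the rest. The 405-base transcript of Ly6a2 aligned to the coding sequences of Ly6i at 85.3%, Ly6c2 at 84.9%, Ly6a at 84.1% and Ly6g at 82.1%. The stretches below show the bases that let a read be assigned within each pair whose levels are set side by side later. Capitals mark bases that differ within a pair.
Ly6c1, coding bases 1 to 180: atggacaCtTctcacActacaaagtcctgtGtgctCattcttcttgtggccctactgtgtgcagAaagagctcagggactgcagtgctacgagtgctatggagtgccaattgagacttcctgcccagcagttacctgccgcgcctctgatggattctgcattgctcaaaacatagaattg
Ly6c2, coding bases 1 to 180: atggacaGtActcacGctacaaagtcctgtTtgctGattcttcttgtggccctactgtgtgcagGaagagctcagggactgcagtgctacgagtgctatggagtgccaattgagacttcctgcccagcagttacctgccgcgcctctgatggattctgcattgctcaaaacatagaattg
Ly6a, coding bases 188 to 367: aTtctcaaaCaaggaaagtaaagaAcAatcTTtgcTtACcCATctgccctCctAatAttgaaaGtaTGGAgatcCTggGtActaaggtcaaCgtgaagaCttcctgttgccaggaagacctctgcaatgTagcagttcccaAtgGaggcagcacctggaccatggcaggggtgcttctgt
Ly6a2, transcript bases 188 to 367: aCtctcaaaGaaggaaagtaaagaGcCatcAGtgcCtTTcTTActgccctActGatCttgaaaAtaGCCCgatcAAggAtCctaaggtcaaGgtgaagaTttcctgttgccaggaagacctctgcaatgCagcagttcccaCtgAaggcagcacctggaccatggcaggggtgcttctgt

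The stretch of Ly6c1 and Ly6c2 differed at 6 of 180 bases, and that of Ly6a and Ly6a2 at 29. Over whole transcripts, none of the windows of 150 bases, the length of 1 sequenced end, in Ly6a, Ly6a2, Ly6d, Ly6e, Ly6g or Ly6i occurred in a transcript of another gene. Ly6c1 and Ly6c2 shared 39 such windows with each other, 2.29% of those of Ly6c1 and 1.42% of those of Ly6c2. Ly6k shared 69 of its 680 windows with Gm17189. This concerns exact copies in annotated transcripts only, and reads with mismatches or from unannotated copies can still be shared between paralogs.

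**Figure D1:**
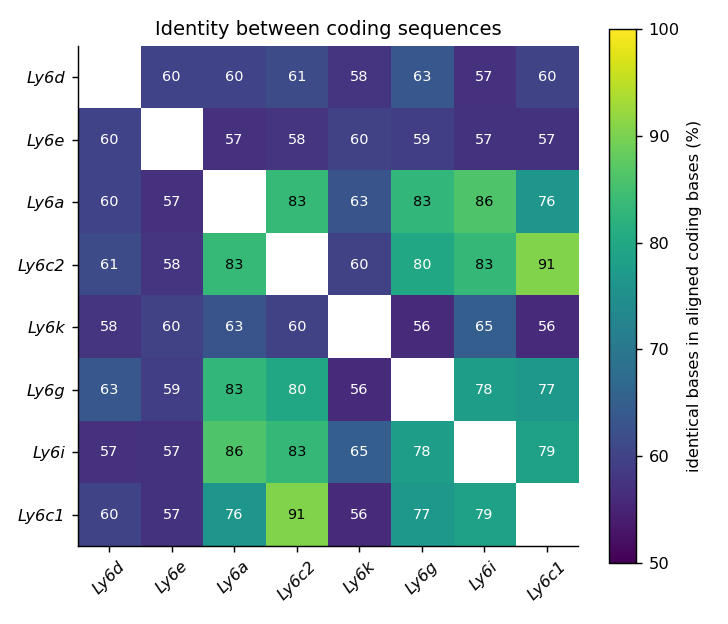
Identity between the coding sequences of the 8 members that have one, in percent of aligned bases (color scale from 50 to 100%); both axes list the genes. Ly6a, Ly6c1, Ly6c2, Ly6g and Ly6i form a block of 76.3% or more, while Ly6d, Ly6e and Ly6k stay at 64.9% or below with every gene.

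Sequences before the transcription start were available for 4 members (RefSeq, GRCm38.p6). They are shown for the 250 bases before 1 annotated start of each gene, since the neighbours Ly6c2 and Ly6a2 were nearly identical there although their RNA levels followed different patterns. For Ly6g this start lies downstream of that in GENCODE M21 (75155240), so the bases printed from that position on lie within the gene as mapped above. Ly6c2 is the reference, and capitals mark bases of the other genes that differ from it or have no counterpart in it.
Ly6c2, chr15:75111972-75112221, minus strand: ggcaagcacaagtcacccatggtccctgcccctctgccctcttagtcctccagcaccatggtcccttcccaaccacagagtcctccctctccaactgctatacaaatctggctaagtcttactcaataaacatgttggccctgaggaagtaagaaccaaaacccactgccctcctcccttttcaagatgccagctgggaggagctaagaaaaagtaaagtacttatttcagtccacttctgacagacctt
Ly6a2, chr15:75135129-75135378, minus strand: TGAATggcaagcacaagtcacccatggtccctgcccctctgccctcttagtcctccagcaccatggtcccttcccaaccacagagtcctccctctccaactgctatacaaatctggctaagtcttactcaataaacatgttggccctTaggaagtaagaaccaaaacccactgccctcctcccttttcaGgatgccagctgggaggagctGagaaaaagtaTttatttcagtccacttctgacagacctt
Ly6g, chr15:75155079-75155328, plus strand: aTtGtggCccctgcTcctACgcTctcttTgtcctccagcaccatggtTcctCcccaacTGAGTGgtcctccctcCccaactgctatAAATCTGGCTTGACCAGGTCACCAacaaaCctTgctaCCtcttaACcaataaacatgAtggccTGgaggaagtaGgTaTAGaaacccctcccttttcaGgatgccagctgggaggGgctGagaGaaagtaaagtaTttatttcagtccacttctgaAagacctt
Ly6c1, chr15:75048838-75049087, minus strand: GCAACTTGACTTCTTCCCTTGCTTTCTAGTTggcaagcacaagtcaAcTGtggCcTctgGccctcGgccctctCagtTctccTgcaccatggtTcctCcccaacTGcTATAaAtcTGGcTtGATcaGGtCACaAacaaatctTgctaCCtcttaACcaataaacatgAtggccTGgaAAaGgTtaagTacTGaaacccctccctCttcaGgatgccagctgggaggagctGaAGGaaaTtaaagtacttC

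Each sequence was aligned to that of Ly6c2. Ly6a2 was identical to Ly6c2 at 241 of 245 aligned bases (98.4%), Ly6g was identical to Ly6c2 at 189 of 226 (83.6%) and Ly6c1 was identical to Ly6c2 at 164 of 216 (75.9%). An interferon gamma activated site (TTCNNNGAA) and an interferon-stimulated response element (a pair of GAAA runs with 2 bases between them) were searched on both strands in the windows from 250 bases before to 50 bases after each annotated start. None of the 7 windows of the 4 genes held either run of letters. Over all 32851 promoters of the table, 8.30% held the first and 3.44% the second. The absence of these letters bears on these windows only.

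Summed over the family, 4170 to 4776 FPKM were measured in CD11b- B cells and 3933 to 4397 FPKM in their CD11b+ counterparts, against 139 to 169 FPKM in PMs. The members took 0.525 to 0.595% of all reads in the CD11b- libraries, 0.509 to 0.577% in the CD11b+ libraries and 0.0336 to 0.0525% in the PM libraries. Because these are bulk samples, fewer cells that carry a transcript and less of it per cell cannot be told apart. In the B cell groups the mean levels ran from Ly6d (2802 and 3498 FPKM) over Ly6e (641 and 704) and Ly6a (655 and 322) to Ly6c2 (33.7 and 15.7) and Ly6k (11.0 and 6.89), in CD11b+ and CD11b- B cells respectively. Ly6g, Ly6i and Ly6c1 averaged 1.94 FPKM or less in every group.

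**Figure D2:**
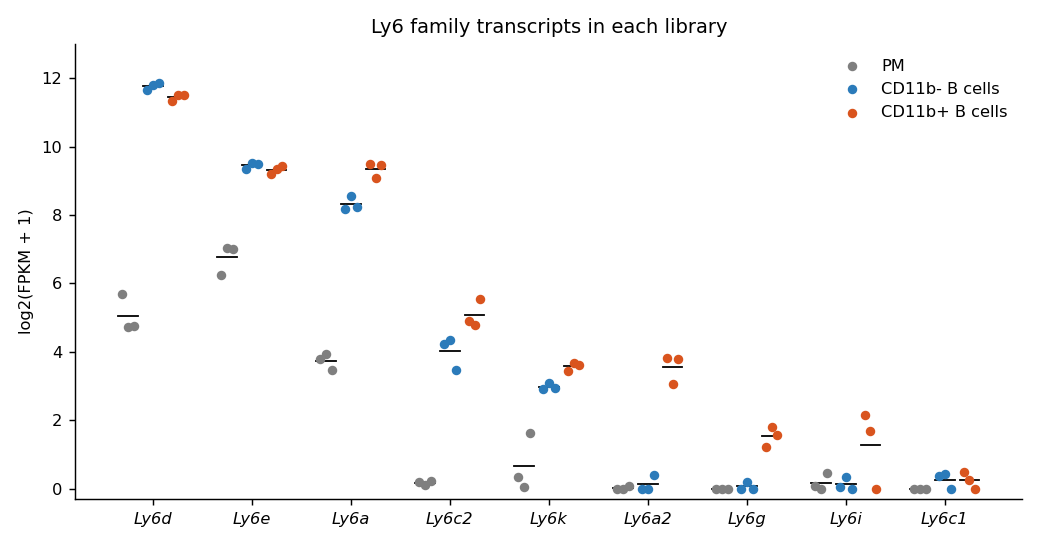
Levels of the 9 members as log2(FPKM + 1) on the vertical axis, with 1 point per library, 3 libraries per group and a line at the mean of the group. Ly6d, Ly6e, Ly6a and Ly6c2 were higher in all 6 B cell libraries than in all 3 PM libraries, and Ly6a2 and Ly6g were above 1 FPKM in the 3 libraries of CD11b+ B cells alone.

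Ly6d, the B lineage marker, was the most abundant member in B cells and ranked 8th among all genes in CD11b- B cells and 11th in CD11b+ B cells by mean FPKM. Its level was 3206, 3550 and 3738 FPKM in the 3 libraries of CD11b- B cells and 2576, 2891 and 2938 FPKM in those of CD11b+ B cells. The 3 CD11b+ libraries all lay below the 3 CD11b- libraries, but the difference was -0.32 on the log2(FPKM + 1) scale with a 95% interval from -0.97 to 0.34 (limma). In PMs, Ly6d was at 51.1, 25.2 and 26.0 FPKM. Expressed against Cd79a, which encodes a signalling chain of the B cell receptor, Ly6d was at 105 to 145% of the FPKM of Cd79a in the PM libraries, at 142 to 145% in the CD11b- libraries and at 133 to 139% in the CD11b+ libraries. The level in PMs was 0.975% of that in CD11b- B cells for Ly6d and 1.11% for Cd79a. Over the 16 B cell markers the same ratio ran from 0.245 to 23.9%. The part of B cells in the PM values was not tested.

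Ly6e, the interferon-induced member, was at 652, 739 and 719 FPKM in CD11b- B cells and at 584, 653 and 686 FPKM in CD11b+ B cells. These ranges overlapped, and the difference was -0.14 with a 95% interval from -0.54 to 0.27. PMs held 74.5, 129 and 129 FPKM, which made Ly6e the leading member in each PM library. Its level in PMs was 15.7% of that in CD11b- B cells, above the 1.11% of Cd79a and within the range of 0.245 to 23.9% over the 16 B cell markers, of which only Cd37 was higher. Ly6e was at 211 to 596% of the FPKM of Cd79a in the PM libraries, against 27.9 to 29.9% in the CD11b- and 31.1 to 31.6% in the CD11b+ libraries.

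Ly6a (Sca-1) was at 288, 375 and 301 FPKM in CD11b- B cells and at 717, 546 and 701 FPKM in CD11b+ B cells, with 12.9, 14.3 and 9.99 FPKM in PMs. The 3 groups did not overlap. The mean was 2.04-fold higher in the CD11b+ group than in the CD11b- group, a difference of 1.02 ± 0.19 (SE) on the log2(FPKM + 1) scale that did not pass the adjusted threshold of 0.05 over all genes. In CD11b+ B cells Ly6a (655 ± 94.6 FPKM, SD, n = 3) and Ly6e (641 ± 52.0 FPKM) could not be ordered, since their libraries overlapped, whereas in CD11b- B cells every library held more Ly6e (704 ± 45.7) than Ly6a (322 ± 46.9). Within libraries, Ly6a stood at 41.9 to 50.7% of the FPKM of Ly6e in CD11b- B cells and at 83.6 to 123% in CD11b+ B cells.

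The composition of the family followed from these 3 genes. Ly6d made up 76.9 ± 1.30% of the summed family FPKM in the CD11b- libraries, 67.4 ± 2.22% in the CD11b+ libraries and 22.4 ± 12.4% in the PM libraries (SD, n = 3). Ly6a made up 7.07 ± 0.854%, 15.8 ± 2.53% and 7.93 ± 1.74% in the same order. Ly6e was at 15.5 ± 0.370% and 15.4 ± 0.493% in the 2 B cell groups and at 69.0 ± 13.3% in PMs.

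**Figure D3:**
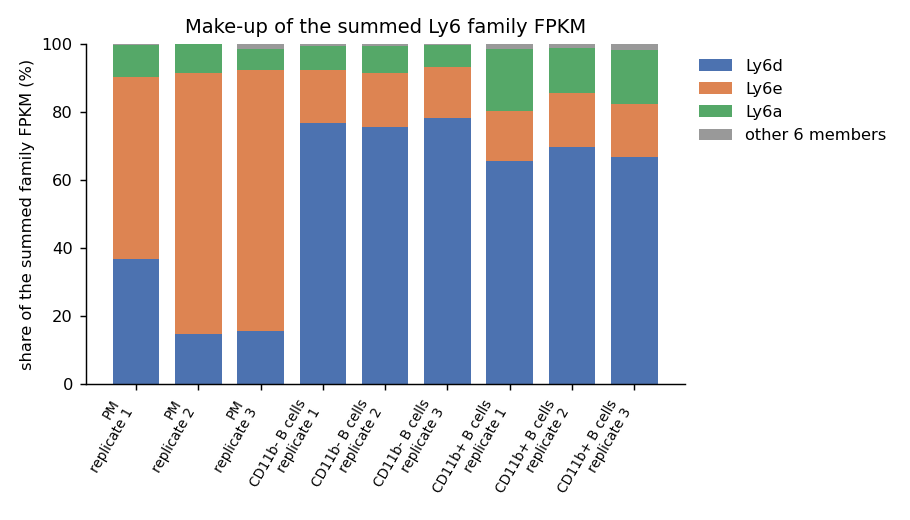
Share of each member in the summed family FPKM of a library (percent, stacked bars from 0 to 100), 1 bar per library. Ly6d fills 65.5 to 78.3% of the bars of B cells, Ly6e 53.6 to 76.9% of those of PMs, and Ly6a 13.2 to 18.2% of those of CD11b+ B cells against 6.31 to 7.99% in CD11b- B cells.

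Ly6c2, which encodes a Ly6C antigen, was at 17.8, 19.2 and 10.1 FPKM in CD11b- B cells and at 28.6, 26.4 and 46.1 FPKM in CD11b+ B cells. PMs held 0.142, 0.0750 and 0.163 FPKM, or 22 reads in all, which was 0.807% of the mean level in CD11b- B cells (0.478% to 1.04% over the PM libraries). The same share was 1.11% for the B cell gene Cd79a (0.887% to 1.45%), and the ranges overlapped. The B cell groups did not overlap, and the difference of 1.06 ± 0.29 between them did not pass the adjusted threshold. Replicate 3 was the highest of CD11b+ and the lowest of CD11b- B cells. These libraries also stood apart by other markers. The plasma cell markers summed to 672 FPKM in CD11b+ replicate 3 against 311 and 270 FPKM in the other libraries of the group. In CD11b- replicate 3 they summed to 188 FPKM against 105 and 113 FPKM. The B cell precursor markers summed to 229 FPKM in CD11b- replicate 3 against 16.8 and 18.6 FPKM, and to 62.5 FPKM in CD11b+ replicate 3 against 10.7 and 14.1 FPKM. Both lists were thus highest in replicate 3 of both groups, while Ly6c2 was high in 1 and low in the other. The part of these cells in the Ly6c2 values was not tested. The difference was 0.79 without CD11b- replicate 3 and 0.82 without CD11b+ replicate 3.

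Ly6c1, the closest relative of Ly6c2, was nearly silent. It had 16, 20 and 0 reads in CD11b- B cells (0.286, 0.342 and 0 FPKM), 20, 8 and 0 reads in CD11b+ B cells (0.406, 0.182 and 0 FPKM) and no read in PMs. Replicate 3 of both B cell groups had no read, so both overlapped with PMs, and neither difference from PMs passed the threshold of limma (adjusted p = 0.255 for CD11b+ and 0.195 for CD11b- B cells). Against a floor of 3 reads over the PM libraries the mean was at least 7.39-fold higher in CD11b+ and at least 7.88-fold higher in CD11b- B cells, bounds that cover counting error only and fell to 3.43 without CD11b+ replicate 1 and to 4.47 without PM replicate 2. Reads of Ly6c1 numbered 0 to 10.9 per 1000 reads of Ly6c2 in B cells, and the part of Ly6c2 reads in this small signal was not tested. Its level in CD11b+ and CD11b- B cells differed by -0.02, with a 95% interval from -0.43 to 0.40.

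Ly6a2 separated CD11b+ from CD11b- B cells most widely among the members. It had 307, 154 and 362 reads in CD11b+ B cells (13.1, 7.37 and 12.9 FPKM), 0, 0 and 8 reads in CD11b- B cells (0, 0 and 0.313 FPKM) and 0, 0 and 1 read in PMs (0, 0 and 0.0621 FPKM). The lowest CD11b+ library held more than the highest library of both other groups. The difference between CD11b+ and CD11b- B cells was 3.43 ± 0.29 on the log2(FPKM + 1) scale, which understates the change of a gene this low. The ratio of the mean FPKM was 107, and it rested on 8 reads in 1 CD11b- library. Against PMs the rate of reads was 611-fold higher, with an exact 95% counting interval from 109 to 24160. Beside the reads of Ly6a, an abundant member, there were 12.1, 8.94 and 12.1 reads of Ly6a2 per 1000 in the CD11b+ libraries, which ranked alike by both genes, and 0, 0 and 0.687 per 1000 in the CD11b- libraries, where Ly6a had 11582 to 15774 reads. Ly6c2, whose upstream sequence is printed beside that of Ly6a2, had 885 to 1832 reads in the CD11b- libraries. The part of reads of other members in the signal of Ly6a2 was not tested.

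Ly6g, the antigen of neutrophils, had 37, 62 and 65 reads in CD11b+ B cells (1.34, 2.51 and 1.96 FPKM), 0, 5 and 0 reads in CD11b- B cells (0, 0.152 and 0 FPKM) and none in PMs. The difference between the B cell groups was 1.47 ± 0.23, which did not pass the adjusted threshold. Against the floor of 3 reads over the PM libraries, Ly6g was at least 41.0-fold higher in CD11b+ B cells, and at least 23.2-fold without PM replicate 2. In CD11b- B cells its 5 reads, all in 1 library, were too few to be set apart from PMs.

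Ly6i was detected unevenly, with 118, 67 and 0 reads in CD11b+ B cells (3.48, 2.21 and 0 FPKM), 1, 11 and 0 reads in CD11b- B cells and 1, 0 and 9 reads in PMs. The absence of reads from CD11b+ replicate 3 left the groups overlapping. Ly6k was at 9.82, 11.8 and 11.3 FPKM in CD11b+ B cells, at 6.51, 7.43 and 6.74 FPKM in CD11b- B cells and at 0.268, 0.0413 and 2.09 FPKM in PMs. Its groups did not overlap, and the difference between the B cell groups was 0.60 ± 0.16. Most of the 40 reads of Ly6k in PMs (35) came from replicate 3.

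Between CD11b+ and CD11b- B cells, 1 of the 9 members (Ly6a2) passed the adjusted threshold of limma, against 0.0689% of the 21778 genes tested (15 genes, all higher in CD11b+ B cells). Of the members, 5 had an unadjusted p under 0.05, against 7.68% of all genes. The libraries of the 2 groups did not overlap for 6 of the 9 members, against 14.9% of all genes. Of these, Ly6a, Ly6a2, Ly6c2, Ly6g and Ly6k were higher in CD11b+ B cells (8.63% of all genes) and Ly6d was lower (6.32%). The median difference over the members was 1.02, and that over all genes tested was 0.03. The call of Ly6a2 was lost when CD11b- replicate 1, CD11b- replicate 2 or CD11b+ replicate 1 was left out, and also with a pseudocount of 0.01, without a filter on FPKM and in edgeR with its filter. Ly6a and Ly6c2 did pass in DESeq2 and in edgeR without a filter, as did Ly6g. Ly6a and Ly6c2 also passed in limma with a block by the number in the sample descriptions, on the libraries that share such a number. Ly6g also passed with all 9 libraries in a single fit, and Ly6i passed in edgeR without a filter alone.

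Compared with PMs, 7 of the 9 members were higher in CD11b+ B cells past the threshold, all but Ly6c1 and Ly6i, against 30.3% of the 22102 genes tested in either direction (21.5% higher, 8.78% lower). The same 7 members did not overlap between the groups, against 46.7% of all genes (34.3% higher, 12.4% lower). In CD11b- B cells 5 of the 8 members tested were higher than in PMs (Ly6a, Ly6c2, Ly6d, Ly6e and Ly6k), against 36.7% of the 20985 genes tested in either direction (25.8% higher, 11.0% lower). The call of Ly6k against PMs was lost in edgeR with its filter for both B cell groups, and for CD11b- B cells also in edgeR without a filter and in DESeq2 (highest adjusted p = 0.127). The same 5 members did not overlap, against 51.4% of all genes (36.1% higher, 15.2% lower). Both comparisons share the PM libraries. The differences from PMs were 6.39 ± 0.30 in CD11b+ and 6.71 ± 0.29 in CD11b- B cells for Ly6d, 5.61 ± 0.21 and 4.59 ± 0.19 for Ly6a, 4.90 ± 0.28 and 3.84 ± 0.30 for Ly6c2 and 2.90 ± 0.43 and 2.30 ± 0.43 for Ly6k. For Ly6e the mean was 5.79-fold and 6.35-fold that of PMs. The share of genes called higher depends on the scaling of the libraries. With TMM scaling, 2899 genes were higher and 2565 lower in CD11b+ B cells than in PMs, in place of 4760 and 1940, and 3613 were higher and 2967 lower in CD11b- B cells, in place of 5404 and 2306. The counts of members called were the same under TMM and median-ratio scaling.

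**Figure D4:**
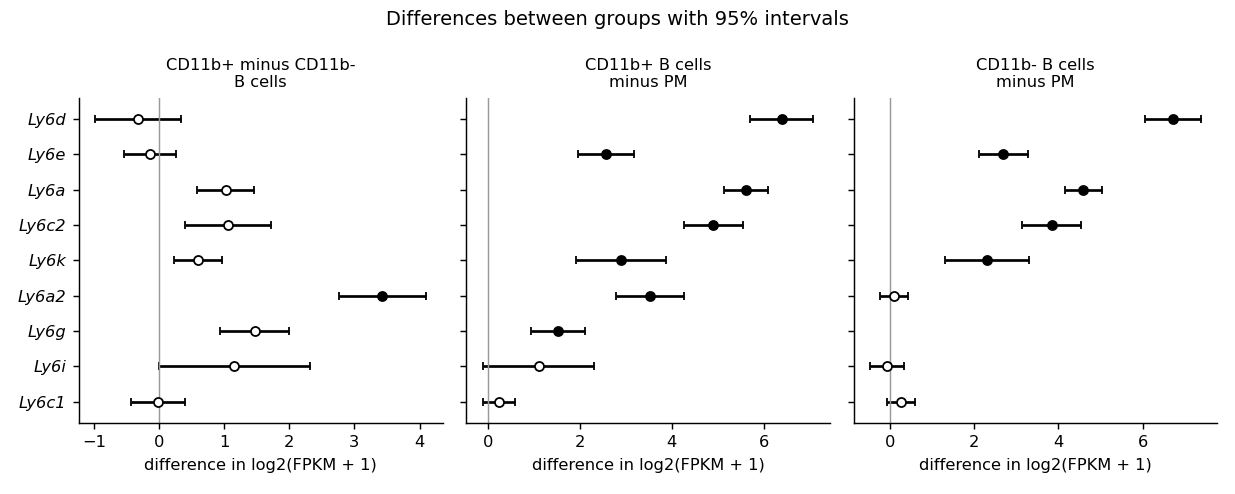
Differences between groups for each member in log2(FPKM + 1) on the horizontal axis, with 95% intervals from limma; filled circles passed the adjusted threshold and open circles did not. Ly6a2 is the only filled circle between the B cell groups (left), and Ly6g has no point in the right panel because it did not pass the filter on low values there.

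The labelled cell types were set against their markers. All 16 B cell markers were higher and all 16 PM markers lower in both B cell groups than in PMs (limma), with Cd79a at 1848 to 2207 FPKM in the CD11b+ libraries, 2250 to 2580 FPKM in the CD11b- libraries and 21.6 to 35.4 FPKM in the PM libraries.

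Markers of other cells moved between the B cell groups along with Ly6a2 and Ly6g. All 16 neutrophil markers were above 0 in the difference between CD11b+ and CD11b- B cells, 14 of them higher without overlap (8.63% of all genes). In limma 3 passed the threshold (0.0689% of all genes), namely S100a8 (6.69 ± 0.49, adjusted p = 0.00566), S100a9 (7.04 ± 0.63) and Retnlg (3.87 ± 0.27). In edgeR with its filter, edgeR without a filter and DESeq2, 10, 16 and 15 of the 16 passed. An unadjusted p under 0.05 in limma was found for 15 (7.68% of all genes). S100a8 and S100a9 encode the calprotectin subunits of neutrophils and monocytes. The 16 markers summed to 218 to 1609 FPKM in CD11b+ B cells, 2.07 to 3.16 FPKM in CD11b- B cells and 219 to 284 FPKM in PMs, where Prtn3 and Csf3r made up most of the sum. Ctsg was the only one of the 16 without a read in CD11b- B cells, and all had reads in the other groups. Of the 14 monocyte markers 13 were tested and were above 0, 8 of them without overlap (8.63% of all genes). Of the 13, 0 passed in limma and 7 had an unadjusted p under 0.05 (7.68% of all genes). In edgeR with its filter, edgeR without a filter and DESeq2, 2, 6 and 6 passed. The 14 monocyte markers summed to 200 to 466 FPKM in CD11b+ and 132 to 154 FPKM in CD11b- B cells. Lyz2 (189 and 34.3 FPKM) and Ms4a4c (114 and 95.2 FPKM) made up most of these sums. The 8 plasma cell markers summed to 270 to 672 FPKM in CD11b+ and 105 to 188 FPKM in CD11b- B cells. Jchain, Mzb1, Derl3 and Xbp1 were higher without overlap, and Irf4 was lower in the mean (23.4 against 29.4 FPKM). The 10 erythroid markers summed to 43.0 to 52.3 against 9.14 to 28.8 FPKM. Hbb-bs, Hbb-bt and Hba-a2 were higher without overlap, while Car2 (2.93 against 4.22 FPKM) and Epor (0.0408 against 0.0864 FPKM) were lower in the mean. Of all genes, 8.63% were higher without overlap. Of the plasma cell markers 0 passed in limma or in edgeR with its filter, 4 in edgeR without a filter and 3 in DESeq2. An unadjusted p under 0.05 in limma was found for 5 of them (7.68% of all genes). Of the erythroid markers 0 passed in limma, edgeR with its filter or DESeq2, 2 in edgeR without a filter, and 4 had an unadjusted p under 0.05 (7.68% of all genes). The sums of the 10 plasmacytoid dendritic cell markers (630 to 710 against 859 to 1081 FPKM) and the 10 endothelial markers (33.8 to 40.2 against 44.3 to 52.9 FPKM) were lower in CD11b+ B cells without overlap. Spib (484 against 776 FPKM) made up most of the first sum and Pecam1 most of the second, while Klk1 (1.48 against 0 FPKM), Bst2 (63.2 against 41.9 FPKM) and Ccr9 (0.320 against 0.0659 FPKM) of the plasmacytoid dendritic cell markers were higher in CD11b+ B cells without overlap. The part of these cells in the values of the members was not tested. The 16 PM markers summed to 116 to 129 FPKM in CD11b+ and 79.3 to 102 FPKM in CD11b- B cells. Among these, Itgam was at 1.31 to 1.92 FPKM in CD11b+ and 0.251 to 0.869 FPKM in CD11b- B cells. Adgre1, which encodes F4/80, was at up to 3.42 FPKM in CD11b+ and up to 1.49 FPKM in CD11b- B cells. Both were higher in CD11b+ B cells without overlap. PMs held 251 to 358 FPKM of Itgam and 232 to 345 FPKM of Adgre1. Between the B cell groups 15 PM markers were tested and 14 were above 0, 11 of them without overlap (8.63% of all genes). Of the 15, 0 passed in limma and 7 had an unadjusted p under 0.05 (7.68% of all genes). In edgeR with its filter, edgeR without a filter and DESeq2, 1, 5 and 6 passed.

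Within the CD11b+ B cells the members did not rank like the neutrophil markers. The marker sum was 677, 1609 and 218 FPKM in replicates 1, 2 and 3. Ly6a2 was lowest in replicate 2, where the sum was highest, and was at 12.9 FPKM in replicate 3, where the sum was lowest. Ly6g was highest in replicate 2 but was at 1.96 FPKM in replicate 3 and 1.34 FPKM in replicate 1. With 3 libraries no relation can be tested, and the part of neutrophils in the values of Ly6a2 and Ly6g was not tested.

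**Figure D5:**
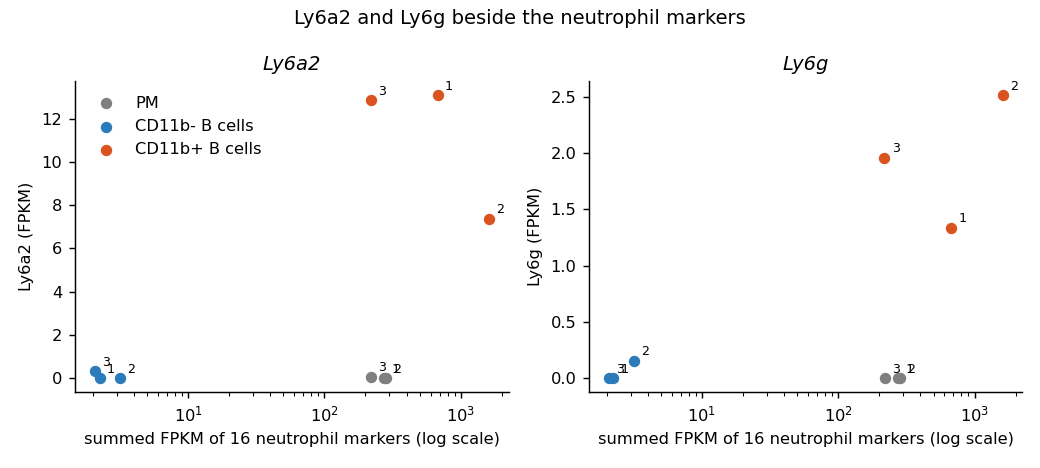
Ly6a2 (left) and Ly6g (right) in FPKM on the vertical axes against the summed FPKM of 16 neutrophil markers (log scale), 1 point per library, numbered by replicate. CD11b+ B cells lie at 218 to 1609 FPKM of markers with 7.37 to 13.1 FPKM of Ly6a2, and PMs at 219 to 284 FPKM of markers, mostly Prtn3 and Csf3r, with 0.0621 FPKM of Ly6a2 or less.

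The genes with the most similar pattern over the 9 libraries, by the root mean square difference of centred log2(FPKM + 1) values among 12487 other genes with a mean of at least 1 FPKM, differed between members. For Ly6d the nearest were Srpk3 (0.14) and Cd79a (0.15). For Ly6e they were Il2rg (0.16), which encodes the common cytokine receptor gamma chain, Lrrc61 (0.16) and Panx1 (0.17). For Ly6a they were Gimap4 (0.28), a GTPase gene of lymphocytes, Mzb1 (0.37), a chaperone gene of plasma cells, and Gimap8 (0.40). For Ly6c2 they were Plac8 (0.37), Iglc4 (0.44) and Gm19951 (0.45), and for Ly6k they were Spint2 (0.29), Ms4a6b (0.33) and Gm13665 (0.34). For Ly6a2 the nearest were Mir5618 (0.55), Cxcr3 (0.57), a chemokine receptor gene, and Elane (0.58), which encodes neutrophil elastase. Elane was at 10.8 FPKM in CD11b+ B cells, 0.0102 FPKM in CD11b- B cells and 0.289 FPKM in PMs, beside 11.1, 0.104 and 0.0207 FPKM for Ly6a2.

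The other genes of the Ly6 and uPAR family were mostly silent. Of 40 listed, 13 were tested between the B cell groups and 0 passed the threshold of limma, 3 had an unadjusted p under 0.05, and 0, 1 and 1 passed in edgeR with its filter, edgeR without a filter and DESeq2. Their median difference was 0.13. Plaur, which encodes the urokinase receptor, was at 154 FPKM in PMs, 23.9 FPKM in CD11b+ B cells and 16.3 FPKM in CD11b- B cells, and was lower than in PMs in both (-2.58 ± 0.28 and -3.14 ± 0.33), a direction that no called member of the 9 took. Lynx1, a modulator of nicotinic receptors, was at 24.4 and 40.4 FPKM in CD11b+ and CD11b- B cells and at 1.07 FPKM in PMs. Ly6m had 397 and 320 reads and Ly6g5b 120 and 190 reads in CD11b+ and CD11b- B cells, and both had none in PMs.

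Genes that build and attach the GPI anchor, on which most Ly6 proteins depend, gave 0 calls between the B cell groups in 28 genes tested, by limma, edgeR or DESeq2, and 0 at an unadjusted p under 0.05 (median 0.01, 14 above and 14 below 0). Against PMs, 6 of the 28 were higher and 1 lower in CD11b+ B cells (21.5% and 8.78% of all genes), with Pigo (2.19 ± 0.46), Mppe1 (1.83 ± 0.32) and Pgap1 (1.69 ± 0.28) highest and Pigz lower (-1.59 ± 0.31), and 10 were higher and 2 lower in CD11b- B cells (25.8% and 11.0% of all genes). Pigo and Pigz encode enzymes of anchor assembly, and Pgap1 and Mppe1 encode enzymes that remodel the anchor after attachment.

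Ly6a and Ly6e belong to the interferon-stimulated genes. Of 26 others listed, 0 passed the threshold of limma between the B cell groups and 7 had an unadjusted p under 0.05 (7.68% of all genes), while 0, 2 and 2 passed in edgeR with its filter, edgeR without a filter and DESeq2. Without overlap 4 were higher and 2 lower in CD11b+ B cells (8.63% and 6.32% of all genes), with a median of 0.23. Isg15, a ubiquitin-like modifier, was at 17.8 to 23.0 FPKM in CD11b+ and 7.81 to 9.78 FPKM in CD11b- B cells, a difference of 1.15 ± 0.17 that did not pass. Of the 14 genes for interferon receptors and signalling 0 passed in limma, edgeR or DESeq2, and 2 had an unadjusted p under 0.05 (median -0.09). Against PMs, 6 of the 26 interferon-stimulated genes were higher and 5 lower in CD11b+ B cells (21.5% and 8.78% of all genes), Gbp4 (3.61 ± 0.29) and Oasl1 (3.28 ± 0.30) among the higher and Ifitm3 (-6.19 ± 0.34) and Oas2 (-1.93 ± 0.47) among the lower, and 6 were higher and 8 lower in CD11b- B cells (25.8% and 11.0% of all genes). Ly6a and Ly6e were higher in both B cell groups than in PMs.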

How the data were processed

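RNA of 9 libraries (3 each of CD11b+ B cells, CD11b- B cells and PMs) was amplified as full-length cDNA, without molecular identifiers, and sequenced from both ends. The authors trimmed with Trim Galore 0.4.4 and mapped them with STAR 2.7.2b to GRCm38. They counted with featureCounts 1.6.1 and deposited FPKM for 55322 genes. A second deposited table holds a normalized signal for 11063 genes (counts over library size factors) and gave the same reads. No source used here gives the strand setting or annotation release, and the submitters' notes also name GRCm39. Positions are those of GENCODE M21 by identifier, not those of the table.

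FPKM times exon length gave whole reads for 100% of values in each library, within 0.05 of a read. Groups came from the sample labels. The members and gene lists were chosen with earlier results of these data known. Named genes were the members, up to 3 genes with the most similar pattern to each member with a mean of 1 FPKM, the largest called changes of each list, and fixed marker genes. Each pair of groups was compared with limma 3.58.1 (trend, two-sided) on log2(FPKM + 1) for genes with a mean of at least 0.05 FPKM over the 6 libraries, adjusted by Benjamini-Hochberg at 0.05. A fold against a group without reads was set against a floor of 3 reads over that group. Intervals of read ratios are exact Clopper-Pearson intervals at 95%, and they and the floors cover counting error only. On simulated data for CD11b+ against CD11b- B cells (21768 genes), 88% of 100 genes changed 4-fold and 8% of 100 genes changed 2-fold were called, with 20 false calls. The simulation gave every gene the same spread between libraries (dispersion 0.05) and changed only genes with a mean of at least 1 FPKM. It therefore does not cover members below that level or with a wider spread. Alternatives were pseudocounts of 0.1 and 0.01, no filter or 1 FPKM, TMM and median-ratio scaling, all 9 libraries, no trend, edgeR 4.0.16, DESeq2 1.42.0 on at least 10 reads, replicate blocks and each library left out. Amino acid sequences and the promoters of the other 5 members were not used here. Values of a few named genes are not reported here.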

Additional observations from a re-analysis of the deposited data

How the results depend on the processing

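Between CD11b+ and CD11b- B cells, 15 genes and 1 member (Ly6a2) were called. With pseudocounts of 0.1 and 0.01 there were 37 and 25 genes and, at 0.01, 0 members, and without a filter 2 genes and 0 members. A minimum of 1 FPKM gave 31 genes. All 9 libraries in one fit gave 36 genes and 2 members (Ly6a2 and Ly6g). edgeR with its filter gave 42 genes and 0 members, edgeR without a filter 571 genes and 5 members, and DESeq2 392 genes and 4 members. Leaving out each library gave 3 to 40 genes and 0 to 1 member, with 3, 4 and 5 genes without CD11b- replicate 1, CD11b- replicate 2 and CD11b+ replicate 1, where Ly6a2 was lost, 7 and 5 without CD11b- replicate 3 and CD11b+ replicate 2, and 40 without CD11b+ replicate 3. The adjusted p of Ly6a2 (limma) was 0.0135, and where the call was lost it was 0.0559 to 0.0970. Ly6k against PMs was lost in edgeR with its filter in both comparisons, and in CD11b- B cells also in edgeR without a filter and in DESeq2. Ly6i against PMs passed without CD11b+ replicate 3, and Ly6c1 against PMs without CD11b- replicate 3. The causes were not tested. No called member changed direction. TMM scaling moved the median of all genes by -0.13 in both comparisons with PMs.

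The labels do not say that a replicate number marks a shared animal or day, so the numbers were not taken to pair the samples. Deviations of CD11b+ and CD11b- libraries with the same number in their titles correlated at 0.284, -0.02 and 0.206. For libraries with different numbers in their titles the correlations ran from -0.297 to 0.143. The libraries at -0.02 have different numbers in their descriptions. The part of a shared animal or day was not tested. A replicate block by the number in the titles gave 16 genes and 1 member between the B cell groups, 5854 and 7125 genes against PMs, and changed no call count of members. A block by the number in the descriptions, which only 4 libraries share between the B cell groups (the pairs at 0.284 and 0.206), gave 127 genes and 3 members, with Ly6a (adjusted p = 0.0443) and Ly6c2 (adjusted p = 0.0398) called beside Ly6a2 by limma.

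Counted in reads instead of FPKM, which favours long transcripts, the share of Ly6d in the family was 38.5, 45.6 and 6.20% in CD11b+ B cells, CD11b- B cells and PMs, that of Ly6e 44.8, 46.7 and 90.1%, and that of Ly6a in PMs 3.42%. Ly6c1, Ly6i and, in CD11b- B cells, Ly6g rested on few reads. The deepest library, CD11b+ replicate 3 (35251215 reads), had 0 reads of Ly6c1 and of Ly6i.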
